A study of Mus musculus with 9 samples.

Results

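Type I interferon-stimulated genes are described here in sorted mouse microglia, the resident macrophages of the brain. The set was named as 43 genes, chosen among interferon-stimulated genes other than the Oas and Gbp families, and a gene was read from the array when a probe set carried its symbol and no other. A gene with several such probe sets was read from the brightest of them. By this rule 39 of the 43 genes were measured, among 22180 genes read the same way. Dtx3l, Ifi47 and Ifi27l2a had only probe sets shared with another symbol, and Ifi44 had no probe set with a listed symbol, so these 4 genes were not analysed here.

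Microglia came from female C57Bl/6 mice aged 24 to 28 weeks and were sorted by flow cytometry from the brain after perfusion, with 3 arrays for each of 3 genotypes. FAD DKO microglia came from mice with the 5X familial Alzheimer's disease transgenes (5XFAD), floxed Hdac1 and Hdac2 (Hdac1/2 fl/fl) and Cx3cr1CreERT2, a tamoxifen-inducible Cre in the locus of the fractalkine receptor. FAD microglia came from 5XFAD mice with the same floxed alleles and no Cre, and wild type microglia from mice labelled only as wild type. All mice, the controls included, received 8 mg of tamoxifen at 6 weeks. FAD DKO and FAD therefore differ in the Cre allele as well as in the deletion, and FAD and wild type in the floxed alleles as well as in the transgenes, and within each pair these cannot be told apart. In this model the transgenes are driven by a neuronal promoter, and Cx3cr1 is also active in brain border macrophages and some blood monocytes. Nothing in the labels states that the 3 arrays of a genotype came from separate animals, so p-values measure only the spread between these samples.

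Type I interferons are secreted cytokines that act through one receptor, made of Ifnar1 and Ifnar2, on nearly every cell type. The kinases Jak1 and Tyk2 on the receptor phosphorylate Stat2, which with Irf9 forms part of a complex that binds interferon-stimulated response elements in the promoters of target genes. The targets include sensors of viral RNA and DNA, proteins that block viral entry or replication, the ubiquitin-like modifier ISG15 with its conjugating enzymes, and feedback factors such as Irf7 and Usp18. In the brain, microglia are among the main responders, and some microglia with raised levels of these genes have been described in ageing and in amyloid models.

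The core of the response element, a pair of GAAA half-sites with any 2 bases between them, read on either strand with overlapping matches counted, was looked for in windows of 250 bases before to 50 after each gene's start, from the RefSeq table of build GRCm38.p6. A window was given for 33 of the 43 genes, and 16 of these (48.5%) held the motif, against 1079 of all 27025 genes with a window (3.99%). More than 1 match stood in the windows of 6 of the 33 genes (18.2%), against 0.266% of all genes. The symmetric motif TTCNNNGAA, known from promoters of cytokine-responsive genes, stood in the windows of 9 of the 33 genes (27.3%), against 9.55% of all genes. A match is a description of letters and not evidence of binding. The sequences below show the motif in 6 genes that are named further on. The motif is in capitals, and the sequences are 160 bases each, 5′ to 3′ on the gene's strand. Relative to the gene's start they run from base -160 to -1, except that of Cxcl10, which runs from -250 to -91. They lie at chr4:156200819-156200978 (minus strand) for Isg15, chr19:34640729-34640888 (plus strand) for Ifit1, chr19:34583369-34583528 (plus strand) for Ifit3, chr8:71537473-71537632 (minus strand) for Bst2, chr12:26456453-26456612 (minus strand) for Rsad2 and chr5:92348980-92349139 (minus strand) for Cxcl10. In Bst2 the first match overlaps a TTCNNNGAA match that is not marked.
Isg15: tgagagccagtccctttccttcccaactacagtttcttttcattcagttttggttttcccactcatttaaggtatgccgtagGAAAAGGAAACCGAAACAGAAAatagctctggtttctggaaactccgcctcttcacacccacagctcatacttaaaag
Ifit1: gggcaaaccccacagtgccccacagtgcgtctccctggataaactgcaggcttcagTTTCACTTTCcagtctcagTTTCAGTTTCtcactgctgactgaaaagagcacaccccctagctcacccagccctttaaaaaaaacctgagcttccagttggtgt
Ifit3: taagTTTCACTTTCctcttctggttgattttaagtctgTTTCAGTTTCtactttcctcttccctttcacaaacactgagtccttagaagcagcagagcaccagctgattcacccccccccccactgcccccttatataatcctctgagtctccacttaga
Bst2: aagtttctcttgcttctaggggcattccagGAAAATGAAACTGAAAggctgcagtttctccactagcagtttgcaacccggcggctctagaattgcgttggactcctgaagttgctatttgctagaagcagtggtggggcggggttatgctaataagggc
Rsad2: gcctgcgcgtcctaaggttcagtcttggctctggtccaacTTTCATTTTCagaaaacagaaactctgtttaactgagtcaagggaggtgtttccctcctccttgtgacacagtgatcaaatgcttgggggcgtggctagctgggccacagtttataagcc
Cxcl10: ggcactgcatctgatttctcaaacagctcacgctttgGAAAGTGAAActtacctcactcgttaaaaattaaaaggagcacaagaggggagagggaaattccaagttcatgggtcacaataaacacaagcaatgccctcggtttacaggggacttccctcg
For Isg15, 3 overlapping matches stood next to each other, and Ifit1 and Ifit3 had a pair of matches each on the opposite strand. Trim30c, the member with the smallest p in every comparison, had no match of the GAAA pair in its window. Its 1 TTCNNNGAA match is in capitals in the stretch shown here, which lies at chr7:104400779-104400938 (minus strand). Irf7 had neither motif in its window, of which a stretch is shown for contrast, at chr7:141266425-141266584 (minus strand).
Trim30c: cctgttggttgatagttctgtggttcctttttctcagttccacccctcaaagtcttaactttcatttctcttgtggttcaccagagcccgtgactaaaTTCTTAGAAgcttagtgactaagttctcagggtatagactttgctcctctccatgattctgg
Irf7: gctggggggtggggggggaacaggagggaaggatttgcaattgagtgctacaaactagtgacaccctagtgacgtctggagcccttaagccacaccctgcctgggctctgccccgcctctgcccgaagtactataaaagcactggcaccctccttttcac

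The values are log2 array signals with a median per array between 5.346 and 5.398. Hdac1 had 7.63, 7.41 and 7.64 in FAD DKO, 8.03, 8.14 and 8.19 in FAD and 8.07, 8.65 and 8.60 in wild type microglia, and Hdac2 had 7.89, 7.61 and 7.90 in FAD DKO, 8.56, 8.52 and 8.36 in FAD and 8.28, 8.39 and 8.22 in wild type. Both were lower in every FAD DKO array than in any other array, although neither passed limma's adjusted threshold against FAD (adjusted p = 0.376 for Hdac1 and 0.159 for Hdac2), and where their probes lie relative to the floxed exons is not given in the sources used here. All 13 measured microglia markers of a list of 14 were above the median signal of 5.35, with a mean level of 10.66 to 10.73 in FAD DKO, 10.67 to 10.76 in FAD and 10.80 to 10.83 in wild type arrays. Among the 39 interferon-stimulated genes 5 (Mx1, Rsad2, Cmpk2, Isg15 and Slfn5) had a mean below the median signal, against 10648 of all 22180 genes. At least 2 arrays had values equal in every deposited digit for 14 of the 39 genes (35.9%; 60.1% of all genes), most for Cmpk2, listed at 5.34 on 5 arrays, and Parp9, listed at 7.25 on 5 arrays. Differences of the low probe sets, and of Cmpk2 and Parp9, carry little information. Other genes with equal values, among them Ddx58, Ifit1 and Ifit2 (2 arrays each) and Isg20 (3 arrays), call for caution too. How far equal values affect a difference was not tested. Bulk RNA cannot tell fewer cells in an interferon-responsive state apart from less RNA per cell.

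The interferon-stimulated genes stood lower in FAD DKO and FAD microglia than in wild type, on average, but the wild type arrays differed widely. With each gene centred on its mean over the 9 arrays, the mean of the 39 genes was -0.11, -0.23 and -0.08 in FAD DKO arrays, -0.28, -0.03 and 0.02 in FAD arrays and 0.49, 0.24 and -0.01 in wild type arrays (replicates 1, 2 and 3). Wild type replicates 1 and 2 were above every other array. Wild type replicate 3 lay between FAD replicates 2 and 3, so the FAD and wild type groups overlapped, while all 3 FAD DKO arrays were below all 3 wild type arrays.

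**Figure D1:**
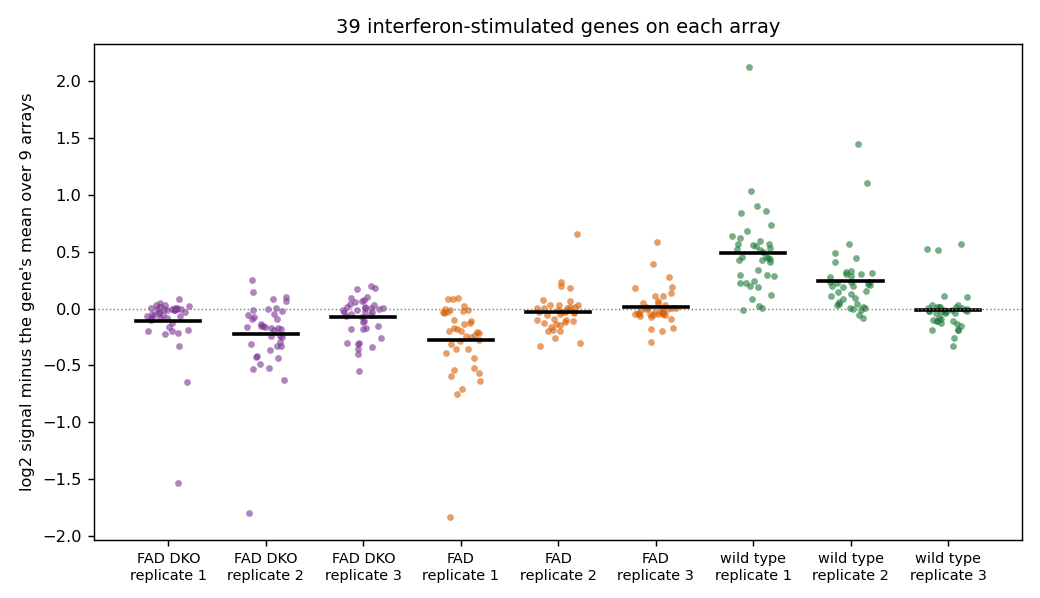
Log2 signal of the 39 interferon-stimulated genes on each array after subtracting the gene's mean over the 9 arrays; a point is a gene and a bar is the mean of the 39. The bars of wild type replicates 1 and 2 stand at 0.49 and 0.24, and that of wild type replicate 3 stands at -0.01, between FAD replicates 2 and 3.

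In FAD against wild type microglia, 38 of the 39 genes had a difference below 0, with a median of -0.287 on the log2 scale, which is a signal 18.0% lower. Over all genes the median was -0.007 and 52.1% were below 0. Most members moved together from array to array, so counts of members, in any comparison, are not counts of independent observations. The members were also chosen with earlier results of these data known. None of the 39 passed limma's adjusted p of 0.05, a threshold that 0.0406% of all genes passed (0.00902% lower). At an unadjusted p under 0.05, 13 of the 39 (33.3%) were lower and 0 higher, where 8.43% of all genes differed (4.02% lower and 4.41% higher). Among the 13 were Ddx58, Ifit1, Ifit2 and Isg20, with equal values on some arrays, and Mx1, below the median signal. The 3 FAD arrays were all below the 3 wild type arrays for 9 of the 39 genes (23.1%; 5.46% of all genes) and all above for 0 (6.37% of all genes). Among the 9 were Ddx58, Ifi35, Ifit1 and Isg20, with such equal values, and Mx1 and Rsad2, below the median signal. For Ddx58 and Ifit1 the closest FAD and wild type values were equal to 2 decimals, at 7.33 and 6.05. The count at an unadjusted p under 0.05 moved with single arrays. As each array was left out, 36 to 38 of the 39 genes stayed below 0. The count of genes without overlap was not made again. Without 1 of the FAD DKO arrays, which lie outside this comparison, the count at that p was 9 to 11. That is 23.1% to 28.2% of the 39, against 3.56% to 4.09% of all genes. Without wild type replicate 1 the median was -0.15, and 3 genes were lower at an unadjusted p under 0.05 (7.69%; 4% of all genes). That count was 3 without FAD replicate 1 (7.69%; 3.38% of all genes) and 2 without wild type replicate 2 (5.13%; 3.3%). It was 7 without FAD replicate 2 (17.9%; 3.62%), and 26 without wild type replicate 3 (66.7%; 3.49%), where the median was -0.41.

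All 4 measured genes of signal transduction and transcription were below 0 in FAD against wild type, with a median of -0.32. Irf7, the transcription factor that amplifies type I interferon production, had 5.64, 5.62 and 5.99 in FAD against 6.35, 6.15 and 5.88 in wild type arrays, a difference of -0.38 (limma adjusted p = 0.514). Only FAD replicate 3 and wild type replicate 3 overlapped. Usp18, the protease that removes ISG15 and restrains the receptor, had 5.85, 6.51 and 6.60 in FAD against 6.93, 6.71 and 6.47 in wild type. Stat2, a subunit of the factor that binds the response element, had 6.89, 6.95 and 7.15 in FAD against 7.67, 7.14 and 6.95 in wild type, and its groups overlapped too. Irf9, the DNA-binding subunit, had 7.36, 7.46 and 7.34 in FAD against 7.57, 7.47 and 7.38 in wild type, and its difference of -0.09 was the smallest of the 4 in size.

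The 6 sensors of RNA and DNA were all below 0, with a median of -0.317. Ifih1, which encodes MDA5, a cytosolic sensor of long double-stranded RNA, had 7.40, 7.49 and 7.51 in FAD against 7.85, 7.75 and 7.61 in wild type. Its groups did not overlap, and the difference was -0.27 (adjusted p = 0.429, limma). Ddx58, which encodes the RNA sensor RIG-I, had 7.13, 7.33 and 7.33 in FAD against 7.89, 7.64 and 7.33 in wild type, a difference of -0.36 (adjusted p = 0.524, limma). To 2 decimals the highest FAD value equalled the lowest wild type value, that of replicate 3, and without wild type replicate 1 the difference was -0.23. Ifi204, a member of the DNA-binding PYHIN family, had 4.25, 6.74 and 6.67 in FAD against 8.21, 7.53 and 6.60 in wild type. FAD replicate 1 stood far below the other FAD arrays, which overlapped wild type replicate 3, and the SD of Ifi204 was 1.42 in FAD and 0.807 in wild type. Dhx58 (the regulator LGP2), Zbp1 (a sensor of Z-form nucleic acids) and Eif2ak2 (the RNA-dependent kinase PKR) had differences of -0.27, -0.41 and -0.26 with overlapping groups.

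All 11 antiviral effectors were below 0, with a median of -0.305. Ifit1, which binds viral RNA lacking a methylated cap, had 5.50, 6.05 and 6.05 in FAD against 6.54, 6.53 and 6.05 in wild type, a difference of -0.51 (adjusted p = 0.52, limma). To 2 decimals its FAD replicates 2 and 3 were level with wild type replicate 3. Without FAD replicate 1 it was -0.33. Ifit2, its relative, had 5.11, 5.10 and 5.23 in FAD against 6.46, 5.84 and 5.17 in wild type, a difference of -0.68 (adjusted p = 0.547, limma). Wild type replicate 3 lay within the FAD values for Ifit2, and without wild type replicate 1 the difference was -0.36. Isg20, an exonuclease that degrades RNA, had 5.55, 5.92 and 5.92 in FAD against 6.15, 6.21 and 6.02 in wild type, with no overlap and a difference of -0.33 (adjusted p = 0.502, limma) that was -0.21 without FAD replicate 1. Mx1 and Mx2, dynamin-like GTPases that trap viral components, had differences of -0.45 and -0.36, and in many laboratory strains, C57BL/6 among them, the Mx1 allele is defective. Ifit3, a partner of Ifit1, went its own way among the arrays, with 7.35, 7.06 and 7.15 in FAD against 7.35, 7.24 and 7.89 in wild type. Wild type replicate 3 was its highest array, where it was the lowest wild type array for most members. The restriction factors Ifitm3, Bst2 and Samhd1 and the radical SAM enzyme Rsad2 (viperin) had differences of -0.15 to -0.30, while Cmpk2, listed at 5.34 on all 3 wild type arrays, had one of -0.04.

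The 7 measured modifiers were all below 0, with a median of -0.202. Trim30c, a mouse TRIM family gene beside Trim30a, had 5.43, 5.47 and 5.55 in FAD against 6.04, 6.04 and 6.11 in wild type arrays. The groups stood apart with little spread in either, and the difference was -0.58 ± 0.116 (SE; n = 3 arrays each; adjusted p = 0.192, limma). Trim30a, a negative regulator of NF-kB signalling, had 7.32, 7.36 and 7.04 in FAD against 7.97, 7.34 and 7.34 in wild type, with overlap. Parp14, an ADP-ribosyltransferase, had 7.60, 7.77 and 7.78 in FAD against 8.26, 8.01 and 7.80 in wild type, with no overlap and a difference of -0.31 (adjusted p = 0.538, limma) that was -0.19 without wild type replicate 1. Isg15 itself had 5.23, 5.25 and 5.09 in FAD against 5.38, 5.42 and 5.22 in wild type, below the median signal on all but 2 of these arrays. Herc6, the main ISG15 ligase of the mouse, and Trim25, a ubiquitin ligase of the RIG-I pathway, had differences of -0.17 and -0.20, and Parp9 had -0.05.

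Among the other members, the secreted chemokine Cxcl10, which draws T cells through Cxcr3, had 5.82, 6.51 and 6.92 in FAD against 7.37, 7.63 and 6.54 in wild type. Wild type replicate 3 lay within the FAD range, and FAD replicate 1 was the lowest of the 6. Lgals3bp, a secreted glycoprotein, had 9.59, 10.36 and 10.20 in FAD against 10.72, 10.21 and 9.82 in wild type, with overlap. The 3 Schlafen genes were below 0 (median -0.264), as were Rtp4, Xaf1, Ifi35 and Sp100 (median -0.403). Sp100, a nuclear body protein, had 4 probe sets with differences of -0.52, -0.64, -0.87 and -0.70, all below 0. Of the immunity-related GTPases, which coat vacuoles of intracellular pathogens, Irgm1 had a difference of -0.17 and Igtp one of 0.06, the only one of the 39 above 0.

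**Figure D2:**
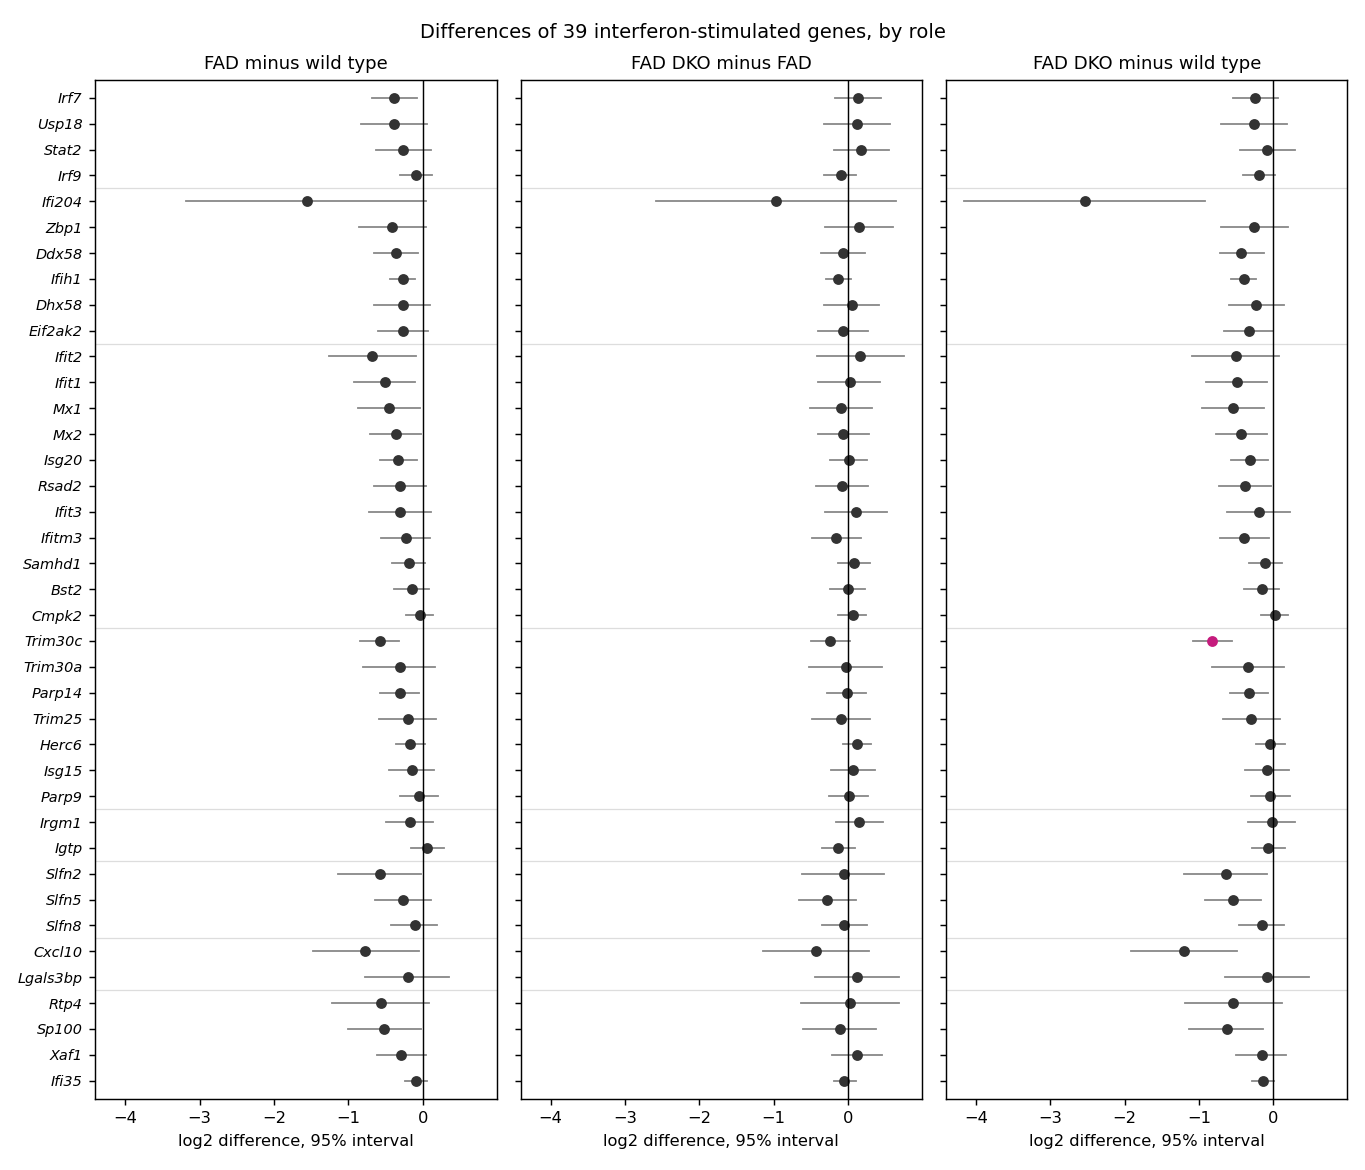
Log2 difference of each of the 39 genes (point) with its 95% interval (line) for the 3 comparisons, with genes grouped by role. A coloured point passed the adjusted threshold, which Trim30c did in FAD DKO minus wild type; 38 points lie below 0 in both comparisons with wild type, and 21 in FAD DKO minus FAD.

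In FAD DKO against FAD microglia, the comparison that bears on the deletion of both deacetylases in the amyloid background, the 39 genes lay on both sides of 0. There were 21 below and 18 above, with a median of -0.02 (all genes 0.01, with 46.7% below 0). None passed limma's adjusted threshold, which 0.0225% of all genes passed, and 0 of the 39 were at an unadjusted p under 0.05, against 8.1% of all genes (4.41% lower and 3.69% higher). FAD DKO arrays were all below FAD arrays for 1 gene, Ifih1 (2.56%; 6.50% of all genes), and all above for 2 genes, Herc6 and Ifit2 (5.13%; 5.38% of all genes). The 95% interval of the difference lay within 1 log2 unit either side of 0 for 37 of the 39 genes, all but Ifi204 and Cxcl10, and within 0.5 for 24. Intervals of this width do not show that levels were equal. Leaving out single arrays moved the count below 0 between 15, without FAD DKO replicate 2, and 27, without FAD replicate 1, where the median was -0.11.

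The members with the smallest p in this comparison, none under 0.05 unadjusted, are given next. Trim30c had 5.47, 4.97 and 5.29 in FAD DKO against 5.43, 5.47 and 5.55 in FAD arrays, a difference of -0.24 (adjusted p = 0.637, limma). FAD DKO replicate 1 lay within the FAD values, and without FAD DKO replicate 2 the difference was -0.10. Ifih1 had 7.29, 7.36 and 7.36 in FAD DKO against 7.40, 7.49 and 7.51 in FAD, a difference of -0.13 (adjusted p = 0.679, limma). Slfn5, a Schlafen family gene, had 4.82, 4.56 and 4.56 in FAD DKO against 4.82, 4.76 and 5.20 in FAD, all below the median signal, and a difference of -0.28 (adjusted p = 0.679, limma) that was -0.14 without FAD replicate 3. Herc6 had 8.12, 8.11 and 8.17 in FAD DKO against 7.91, 8.09 and 8.03 in FAD, a difference of 0.12 (adjusted p = 0.716, limma) that was 0.07 without FAD replicate 1. Stat2 had 7.14, 7.23 and 7.16 in FAD DKO against 6.89, 6.95 and 7.15 in FAD, a difference of 0.18 (adjusted p = 0.783, limma) with overlap at FAD replicate 3. Igtp had 7.43, 7.53 and 7.72 in FAD DKO against 7.61, 7.86 and 7.61 in FAD, and its groups overlapped, with a difference of -0.13 that ranged from -0.21 to -0.05 as single arrays were left out.

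Ifi204 and Cxcl10 had the widest intervals. Ifi204 had 4.55, 4.29 and 5.90 in FAD DKO against 4.25, 6.74 and 6.67 in FAD, a difference of -0.97 (adjusted p = 0.727, limma). FAD replicate 1 lay below all FAD DKO arrays, and without it the difference was -1.79. Cxcl10 had 5.88, 6.09 and 5.98 in FAD DKO against 5.82, 6.51 and 6.92 in FAD, a difference of -0.43 (adjusted p = 0.726, limma), which was -0.73 without FAD replicate 1 and -0.18 without FAD replicate 3. Ifit2 had 5.26, 5.26 and 5.40 in FAD DKO against 5.11, 5.10 and 5.23 in FAD, with no overlap and a difference of 0.16. Sp100 had differences of -0.11, -0.09, 0.36 and -0.21 over its 4 probe sets, so the probe sets did not share a direction here.

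In FAD DKO against wild type microglia, 38 of the 39 genes were below 0, with a median of -0.299 (18.7% lower), against a median of 0.004 and 48.6% below 0 over all genes. This comparison and that of FAD with wild type share the 3 wild type arrays. Trim30c fell and was the 1 gene of the 39 to pass limma's adjusted threshold (2.56%; 0.14% of all genes, 0.0451% lower). At an unadjusted p under 0.05, 15 of the 39 (38.5%) were lower and 0 higher, against 8.14% of all genes (4.19% lower and 3.95% higher). FAD DKO arrays were all below wild type arrays for 11 genes (28.2%; 6.15% of all genes). Genes with equal values or a low signal were in both counts, Ddx58, Ifit1, Isg20 and Slfn5 among them. Without wild type replicate 1 the median was -0.15, and 7 genes were lower at an unadjusted p under 0.05 (17.9%; 3.74% of all genes). That count was 9 without FAD DKO replicate 2 (23.1%; 4.32% of all genes), and 23 without wild type replicate 3 (59%; 3.94%), where the median was -0.44.

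Trim30c averaged 5.24 ± 0.255 in FAD DKO and 6.06 ± 0.04 in wild type microglia (SD, n = 3 arrays each), a log2 difference of -0.82 with a 95% interval of -1.08 to -0.56 (adjusted p = 0.0438, limma), or 0.566 times the wild type signal. The call was lost when any 1 of the 9 arrays was left out, with adjusted p between 0.0511 and 0.183, while the difference stayed between -0.93 and -0.68. It was also lost with only the 2 groups in the fit (adjusted p = 0.147), with every probe set tested (adjusted p = 0.0986, limma) and with a replicate block. Trim30 genes are close copies of each other, and whether the probe set of one also takes up RNA of another was not tested. Trim30b, from a list of 63 further interferon-stimulated genes, had 5.72, 5.34 and 5.63 in FAD DKO, 5.36 to 5.57 in FAD and 6.19, 6.18 and 5.94 in wild type arrays. Like Trim30c it was lower in every array of both FAD groups than in any wild type array, and its difference from wild type was -0.54 in FAD DKO (adjusted p = 0.167) and -0.66 in FAD (adjusted p = 0.141, limma). Trim30d had 8.49, 8.24 and 8.79 in FAD DKO, 8.46, 8.77 and 8.72 in FAD and 8.85, 8.82 and 8.68 in wild type arrays, and its groups overlapped.

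After Trim30c, Ifih1 had the smallest p, with 7.29, 7.36 and 7.36 in FAD DKO against 7.85, 7.75 and 7.61 in wild type arrays. Its groups stood apart and its difference was -0.40 ± 0.0758 (SE; adjusted p = 0.103, limma). Cxcl10 had 5.88, 6.09 and 5.98 in FAD DKO against 7.37, 7.63 and 6.54 in wild type, with no overlap and a difference of -1.20 ± 0.315 (SE; adjusted p = 0.29, limma), 0.435 times the wild type signal. Ifi204 had 4.55, 4.29 and 5.90 in FAD DKO against 8.21, 7.53 and 6.60 in wild type, the largest difference of the 39 at -2.54 ± 0.715 (SE; adjusted p = 0.335, limma). Its groups did not overlap, though FAD DKO replicate 3 and wild type replicate 3 came closest. Slfn5 had 4.82, 4.56 and 4.56 in FAD DKO against 5.48, 5.20 and 4.89 in wild type, and Mx1 had 4.81, 4.71 and 5.24 in FAD DKO against 5.82, 5.47 and 5.12 in wild type. Both differences were -0.55 (adjusted p = 0.396 for Slfn5 and 0.45 for Mx1, limma), with overlap for Mx1 at replicate 3 of each group. Ddx58 and Isg20 had differences of -0.43 and -0.32 (adjusted p = 0.399 and 0.457, limma), with no overlap in either. Cmpk2, at 0.02, was the only one of the 39 above 0.

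**Figure D3:**
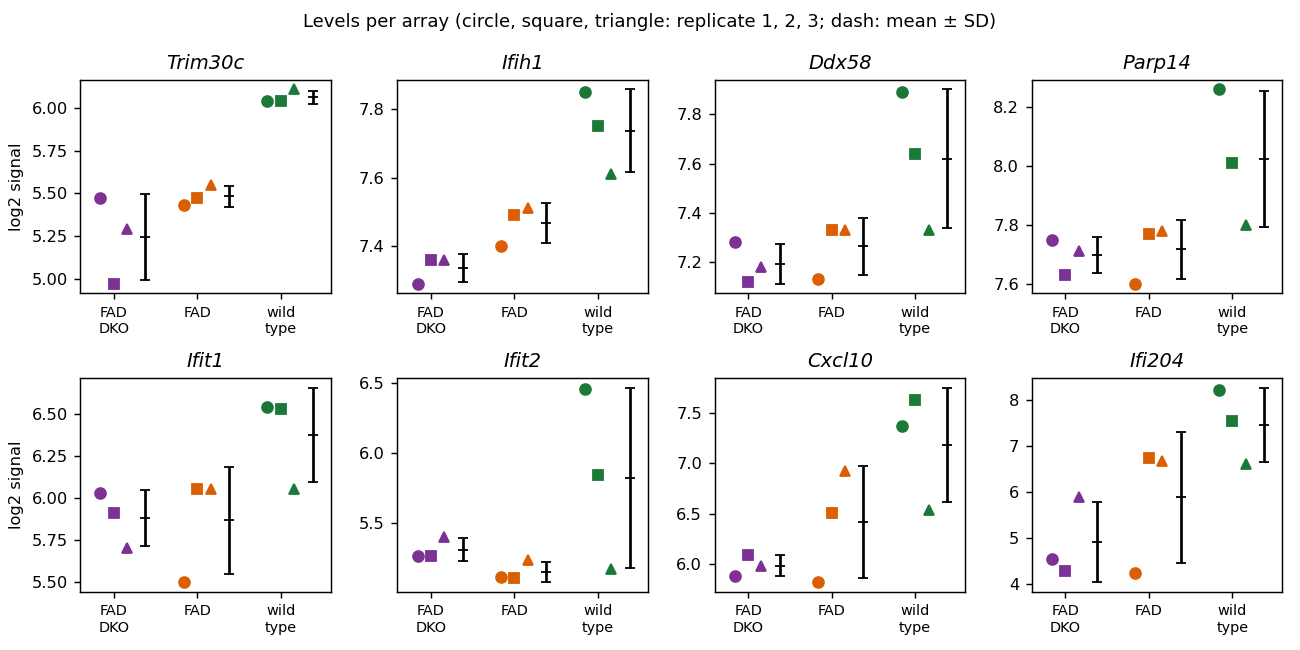
Log2 signal of 8 members on each array, with circle, square and triangle for replicates 1, 2 and 3 and the mean ± SD of 3 arrays beside them; each panel has its own axis. For Trim30c the wild type arrays lie together at 6.04 to 6.11, whereas for Ddx58, Ifit2, Cxcl10 and Ifi204 wild type replicate 3 is the lowest wild type array and lies at or near the FAD values.

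The spread between arrays differed by genotype for these genes. The median SD per gene over 3 arrays was 0.132 in FAD DKO, 0.146 in FAD and 0.276 in wild type for the 39 genes, against 0.109, 0.106 and 0.107 for all genes in the same order of genotypes. Of the 39 genes, 6 (15.4%) had their largest SD in FAD DKO, 9 (23.1%) in FAD and 24 (61.5%) in wild type, against 34.2%, 33% and 32.8% of all genes. The centred mean of the 39 genes ranged over 0.15 across FAD DKO arrays, 0.29 across FAD arrays and 0.50 across wild type arrays. No test was made of this, as the genes are not independent and each genotype has 3 arrays.

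The arrays of a genotype were not alike for these genes. Wild type replicate 1 was the highest of the 3 wild type arrays for 31 of the 39 genes (79.5%; 31.9% of all genes, 41.4% of genes at or above the median signal) and the highest of all 9 arrays for the same number of genes (12.4% of all genes). Wild type replicate 3 was the lowest wild type array for 34 of the 39 (87.2%; 31.2% of all genes, 41.3% at or above the median signal). FAD replicate 1 was the lowest FAD array for 25 (64.1%; 31.3% of all genes, 35.1% at or above the median signal). FAD DKO replicate 2 was the lowest FAD DKO array for 23 (59%; 30.3% of all genes, 38.7% at or above the median signal). The largest SDs in FAD DKO were those of Ifi204 (0.867), Trim30a and Rtp4, with Rtp4 at 6.94, 6.40 and 6.82. In FAD they were those of Ifi204 (1.42), Cxcl10 and Rtp4, with Rtp4 at 6.14, 6.86 and 7.08, and in wild type those of Ifi204 (0.807), Ifit2 and Cxcl10.

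**Figure D4:**
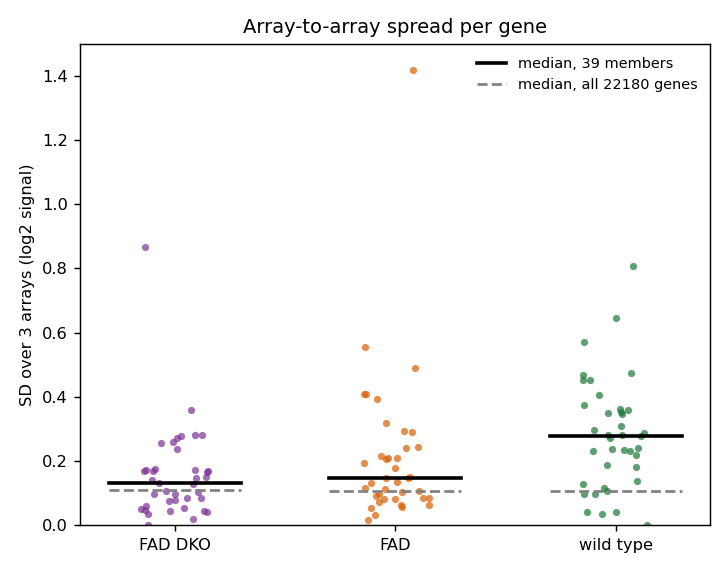
SD of log2 signal over the 3 arrays of each genotype, with a point per gene, a solid line for the median of the 39 members and a dashed line for the median of all 22180 genes. The members' median is 0.276 in wild type against 0.107 for all genes, and 0.132 in FAD DKO and 0.146 in FAD.

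Most of the genes moved together from array to array. Taking each gene's deviations from its genotype means over the 9 arrays, its Pearson correlation with the mean deviation of the other members had a median of 0.83, and 21 of the 39 were at 0.8 or above. These are descriptions over 9 arrays that share each array's amplification and hybridisation. Parp14 (0.98), Ddx58 and Lgals3bp (0.96 each) followed the others most closely. The 9 genes under 0.5 were Ifit3 (-0.52), Cmpk2 (-0.26), Isg15 (-0.09), Igtp (0.17), Trim30c (0.18), Samhd1 (0.19), Ifi35 and Slfn8 (0.41 each) and Ifitm3 (0.48). Trim30c, the 1 gene that passed the threshold, was thus among those that followed the others least. Among 11498 genes outside the members at or above the median signal the median was 0.17 and 649 reached 0.8. The 10 closest were Nfat5 (0.996), Rnf213 (0.989), Phf11b (0.985), Tlr12 (0.982), Slc25a36 (0.978), Slc25a51 (0.977), Slc15a4 and Map2k5 (0.974 each), Sod1 (0.971) and Eif3k (0.967), of which Rnf213 and Phf11b were on the list of further interferon-stimulated genes. The genotype means were taken out before this correlation, so for any gene the likeness is in the deviations of single arrays only. Nfat5 had a difference of -0.06 in FAD and 0.07 in FAD DKO against wild type.

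**Figure D5:**
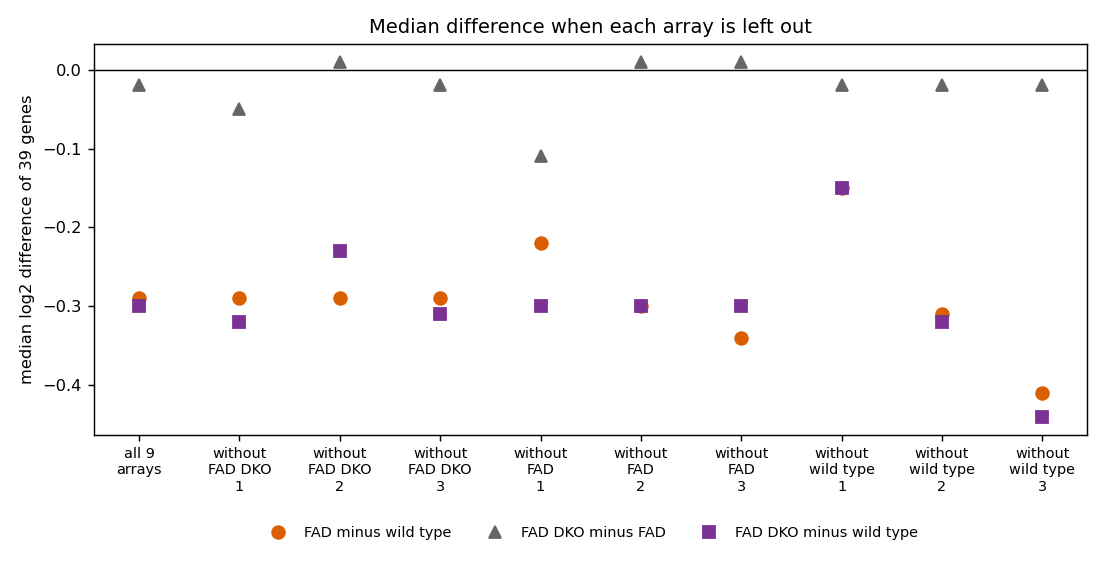
Median log2 difference of the 39 genes in each comparison with all 9 arrays and with each array left out in turn. Without wild type replicate 1 both medians against wild type are -0.15, and without wild type replicate 3 they are -0.41 in FAD and -0.44 in FAD DKO; that of FAD DKO minus FAD stays between -0.11 and 0.01.

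The upstream genes of the pathway showed no call in any comparison by limma, at 0 of 19 measured interferon genes, 0 of 9 receptors and JAK kinases, 0 of 5 other interferon regulatory factors, 0 of 10 negative regulators and 0 of 15 sensors and adaptors of induction. At an unadjusted p under 0.05 these lists had between 0 and 2 genes in any direction and comparison. Of all genes, 0.0225% to 0.14% passed the adjusted threshold, depending on the comparison. In each direction, 3.69% to 4.41% of all genes were at an unadjusted p under 0.05. At these shares, lists of 5 to 19 genes would hold few or no such genes. The counts therefore cannot tell the upstream genes from genes at large. Of the interferon genes, 12 of 19 were below the median signal, Ifnb1 among them at 3.02, 2.90 and 2.52 in FAD DKO, 3.17, 3.14 and 2.64 in FAD and 3.36, 2.90 and 2.90 in wild type arrays. The median difference of the receptors and JAK kinases was -0.05 in FAD against wild type and -0.08 in FAD DKO against wild type. Ifngr1, the ligand-binding chain of the type II interferon receptor, had 10.47, 10.39 and 10.47 in FAD DKO, 10.38, 10.31 and 10.36 in FAD and 10.70, 10.65 and 10.65 in wild type arrays. All wild type arrays were above the rest, with a difference of -0.32 in FAD (adjusted p = 0.175, limma). Socs3, a cytokine-induced inhibitor of JAK kinases, had 8.32, 7.74 and 7.82 in FAD DKO against 8.65, 8.69 and 8.60 in FAD arrays. Its groups did not overlap, and the difference was -0.69 (adjusted p = 0.252, limma). Irf8, a lineage factor of microglia, and Irf3, a factor that induces interferon genes, had differences of 0.05 and 0.13 between FAD DKO and FAD. Irf8 had 10.34, 10.20 and 10.21 in wild type arrays, below every FAD and FAD DKO array. Its difference from wild type was 0.15 in FAD and 0.20 in FAD DKO (adjusted p = 0.656 and 0.527, limma).

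Of 63 further interferon-stimulated genes, 55 were measured, and 0 passed the adjusted threshold in any comparison by limma. In FAD against wild type 45 of the 55 were below 0, with a median of -0.19, and 14 were lower and 0 higher at an unadjusted p under 0.05 (4.02% and 4.41% of all genes). In FAD DKO against FAD 30 were below and 25 above 0, with a median of -0.03, and 3 were lower and 1 higher at that p (4.41% and 3.69% of all genes). In FAD DKO against wild type 45 were below 0, with a median of -0.20, and 18 were lower and 1 higher (4.19% and 3.95% of all genes). Their mean level, like that of the 39 genes, was highest in wild type replicate 1 and lowest of the wild type arrays in replicate 3, at 6.69 to 6.82 in FAD DKO, 6.72 to 6.85 in FAD and 6.89 (replicate 3) to 7.13 (replicate 1) in wild type arrays. Rnf213, a giant ubiquitin ligase, had 7.88, 7.86 and 7.95 in FAD DKO, 7.79, 8.00 and 8.06 in FAD and 8.58, 8.35 and 8.15 in wild type arrays. Wild type replicate 3 was its lowest wild type array, yet above all FAD and FAD DKO arrays. Parp12, an ADP-ribosyltransferase, had 8.20, 8.01 and 8.16 in FAD DKO against 8.73, 8.55 and 8.53 in wild type arrays, a difference of -0.48 (adjusted p = 0.0764, limma).

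The PYHIN genes on that list can be set beside Ifi204. Ifi207 had 5.21, 5.34 and 5.15 in FAD DKO, 5.76, 6.44 and 6.31 in FAD and 6.65, 5.92 and 6.16 in wild type arrays. FAD DKO arrays were below all others and FAD and wild type overlapped, with a difference of -0.94 between FAD DKO and FAD (adjusted p = 0.28, limma). Ifi209 had 5.20, 5.18 and 6.10 in FAD DKO, 5.43, 6.09 and 6.49 in FAD and 7.62, 6.91 and 6.37 in wild type arrays. As for Ifi204, wild type replicate 1 was its highest array and FAD replicate 1 its lowest FAD array. The other measured PYHIN genes of the list, Ifi205, Aim2 and Ifi213, did not share a direction between FAD DKO and FAD. Their differences were -0.23, -0.05 and 0.24, against -0.94 for Ifi207, -0.51 for Ifi209 and -0.97 for Ifi204. Aim2, an inflammasome sensor of DNA, was within 0.05 of 0 in all 3 comparisons. These genes are also close copies, so signal shared between their probe sets was not tested either.

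Markers of other cells and of handling were read on the same arrays. The mean level of 19 measured markers of monocytes and neutrophils (of 20 listed, 5 below the median signal) was 5.87, 6.91 and 6.59 in FAD DKO, 6.60, 6.64 and 6.57 in FAD and 6.13, 6.56 and 6.51 in wild type arrays. It was lowest in FAD DKO replicate 1 and next lowest in wild type replicate 1, the array where the interferon-stimulated genes were highest. In FAD against wild type 16 of these 19 markers were above 0 and 3 below (median 0.24). In FAD DKO against wild type 14 were above and 5 below (median 0.07). Of all genes, 52.1% and 48.6% were below 0 in these comparisons. Border macrophage markers (9 of 10 measured, 4 below the median signal, Lyve1 and Cd163 among them) had means of 5.47 to 5.78 in FAD DKO, 5.62 to 5.82 in FAD and 5.45 to 5.77 in wild type. Dendritic cell markers (10 of 12, 4 below) had means of 5.69 to 5.81 in FAD DKO, 5.64 to 5.72 in FAD and 5.62 to 5.73 in wild type. Lymphocyte markers (16 of 18 measured) had 13 genes below the median signal, Cd3e, Cd8a and Ms4a1 among them, and means of 4.86 to 5.02, 4.77 to 4.85 and 4.84 to 4.95 in FAD DKO, FAD and wild type arrays. Genes raised by the stress of cell isolation (20 of 20 measured) had means of 8.77 to 8.82 in FAD DKO, 8.87 to 9.21 in FAD and 9.03 to 9.08 in wild type. They were thus lower in FAD DKO, while the wild type arrays differed little. In FAD DKO against FAD 18 of the 20 were below 0, against 46.7% of all genes. At an unadjusted p under 0.05, 11 were lower, and 1 was lower at the adjusted threshold (4.41% and 0.0225% of all genes). In FAD DKO against wild type these counts were 17, 10 and 1 (48.6%, 4.19% and 0.0451% of all genes). In FAD against wild type 12 were below 0 and 8 above. Astrocyte markers (9 of 9 measured, 6 below the median signal, Gfap and Aldh1l1 among them) had means of 5.26 to 5.41 in FAD DKO, 5.26 to 5.41 in FAD and 5.42 to 5.44 in wild type. In FAD against wild type 7 of the 9 were below 0, against 52.1% of all genes. At an unadjusted p under 0.05, 4 of the 9 were lower, against 4.02% of all genes. In FAD DKO against wild type 9 of 9 were below 0, against 48.6% of all genes. At that p 1 was lower, against 4.19% of all genes. Of the 13 microglia markers, 12 were below 0 in FAD against wild type (median -0.09) and 10 in FAD DKO against wild type (median -0.05). The shares of all genes below 0 were 52.1% and 48.6%. At an unadjusted p under 0.05, 1 of the 13 was lower in FAD and 4 in FAD DKO against wild type, and 0 were higher. The shares of all genes lower at that p were 4.02% and 4.19%. The part of these cells and of handling in the differences of the interferon-stimulated genes was not tested.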

How the data were processed

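RNA of sorted microglia was amplified, labelled with biotin and hybridised to 1-colour arrays, per the labels' protocols. The authors deposited log2 signals per probe set, made with RMA per the submitters' processing notes, with a software version and a build that the sources used here do not name. Of 41345 probe sets, 25335 were listed in the platform's gene table, 23521 with 1 symbol and 1814 with several, and 16010 were unlisted. RefSeq identifiers matched 23328 of the first and changed 0 symbols.

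One probe set per gene, the brightest by mean, gave 22180 genes. All 9 arrays entered 1 limma fit (version 3.58.1, R 4.3.3) with a mean per genotype and moderated variances (eBayes). Two-sided p-values were adjusted over the 22180 genes by Benjamini-Hochberg, and those under 0.05 passed. The p-values counted as unadjusted are those of the same fit, made from the deposited values. The fit was tested on simulated data. Figures used Python 3.11.15 and matplotlib 3.10.9. Detection calls were not used here, and the number of arrays limits the precision.

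Genes with differences in the text were, for each comparison, 8 members with the smallest p, the dimmest and brightest members, those with the largest SD in each genotype, and by list those with the smallest p. Others are named to complete a role or because their groups did not overlap, and were chosen after their values were seen. The members and lists were chosen with earlier results of these data known. Alternatives were a low-signal filter, quantile normalization, a trended and robust variance, only the groups compared, array weights, mean or every probe set, a replicate block and leaving out arrays.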

Additional observations from a re-analysis of the deposited data

How the results depend on the processing

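For the 39 genes, both medians against wild type stayed below 0, and the counts below 0 stayed within 1.5 times, under every alternative run. In FAD DKO minus FAD the median of -0.02 was 0.01 with quantile normalization. Leaving out 1 array at a time gave, for FAD minus wild type, 0 members called, 36 to 38 below 0 and medians of -0.41 to -0.15, with 8 to 12 of all genes called. For FAD DKO minus FAD it gave 0 members called, 15 to 27 below 0 and medians of -0.11 to 0.01, with 0 to 5 of all genes called. For FAD DKO minus wild type it gave 0 members called in all 9 fits against 1 with all arrays, 33 to 38 below 0 and medians of -0.44 to -0.15, with 2 to 28 of all genes called.

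The count of all genes called in FAD minus wild type was 9, and was 33 with the low-signal filter, 43 with a trended and robust variance, 5 with only the 2 groups and 22 with array weights. In FAD DKO minus FAD it was 5, and was 11 with the filter, 3 with quantile normalization, 12 with a trended and robust variance and 0 with only the 2 groups. In FAD DKO minus wild type it was 31, and was 117 with the filter, 124 with a trended and robust variance, 13 with only the 2 groups, 82 with array weights and 14 with every probe set. Members called there were 2, Trim30c and Ifih1, with the filter (Ifih1 adjusted p = 0.0307, limma) and with a trended and robust variance (0.0321), and 0 with only the 2 groups or every probe set. For Trim30c the adjusted p ranged over 0.0137 to 0.214 between alternatives. The cause of these shifts was not tested.

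Same-numbered arrays of different genotypes did not deviate together over all genes (correlations of -0.11 to 0.122 over 9 pairs, and -0.189 to 0.129 for differently numbered arrays). The labels give no batch, and such correlations cannot show whether same-numbered samples were handled together. With the replicate block, 2 genes were called in FAD DKO minus FAD, 11 in FAD DKO minus wild type and 0 of the 39 members, with an adjusted p of 0.108 (limma) for Trim30c in the last comparison; it changed no call of another member. A fit without both wild type replicate 1 and FAD replicate 1, chosen after the data were seen, called 3 genes in FAD minus wild type, 1 in FAD DKO minus FAD and 3 in FAD DKO minus wild type, with 0 members called, and gave medians of the members of -0.12, -0.11 and -0.15 and 31, 27 and 33 below 0. The cause was not tested. Members at an unadjusted p under 0.05 then numbered 1, 1 and 8 of the 39 (2.56%, 2.56% and 20.5%), all lower, against 3.96%, 3.82% and 3.76% of all genes. The wider spread of the members in wild type held with quantile normalization (0.128 in FAD DKO, 0.143 in FAD and 0.244 in wild type). Without detection calls, the values of members near the median signal limit what a difference shows.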
